A study of Mus musculus with 21 samples.

Results

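A set of 10 genes of the acute-phase response and of the interleukin-6 and interleukin-1 cytokine families was followed through cultured mouse fibroblasts with and without the transcription factor Prrx1. They are listed in capitals in the count tables, as SAA3, LCN2, SLPI, HP, IL6, LIF, IL31RA, IL1RN, IL33 and IL1RL1, and make up 10 of the 24447 genes that the 3 tables share. The genes were chosen on their place in the inflammatory programme of cancer-associated fibroblasts (CAF), with earlier results of these data known. The lists and marker sets used below were chosen likewise, so no test here is of genes chosen blind to the data. SAA3 and SLPI were picked for their rise in the edited CAF of these same cultures, so the rise of those 2 genes there is described and not tested. IL31RA had also been singled out earlier for its low level in 3 of the 4 groups with Prrx1 loss. The fourth, sgPrrx1 MEF, is compared with WT MEF that entered that choice, so IL31RA is described throughout and not tested.

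The study sequenced RNA from 21 cultures in 7 groups of 3, all of fibroblasts immortalised with the E6 and E7 genes of a human papillomavirus and grown in DMEM with 10% serum. Mouse embryonic fibroblasts (MEF), from embryos of E10-13, were WT, homeodomain-disrupted by the knock-in allele of 129S-Prrx1tm1Jfm/Mmmh mice (Prrx1 mutant MEF), or transduced with a CRISPR guide to the first exon of Prrx1 (sgPrrx1 MEF). Wound-healing fibroblasts came from dorsal skin wounds at day 10 in C57BL/6 mice, the strain that the labels also give for the MEF, and MMTV-CAF came from breast tumours of MMTV-PyMT mice, which carry a viral oncogene in the mammary epithelium, on FVB/NJ. Both of these types were sequenced as WT and as sgPrrx1 cultures, and the protocol names sgNS cells as the WT control of the editing. Both MEF comparisons share the same 3 WT cultures. Tissue of origin and fibroblast type cannot be told apart in this design. Strain cannot be told apart from type for MMTV-CAF, while the labels give MEF and wound-healing fibroblasts the same strain. The paper lists the mutant line, which has 129S in its name, as backcrossed to C57BL/6. Whether 129S sequence remained in mutant MEF was not tested. The sources used here state neither whether an edited line was a clone nor whether the 3 cultures of a group were derived separately, so the p-values measure the spread between these cultures, which may be technical.

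Acute-phase proteins are plasma and secreted proteins whose synthesis rises steeply in inflammation, in the liver under the control of interleukin-6 through gp130 and STAT3 and of interleukin-1 through NF-kB and C/EBP factors, and locally in stromal cells. Fibroblasts of tumours that express such genes together with interleukin-6 and LIF are known as inflammatory CAF, in contrast to contractile, matrix-producing myofibroblastic CAF. Interleukin-33 is an alarmin stored in the nucleus and is sensed by Il1rl1 (ST2), while Il1rn encodes the natural antagonist of the interleukin-1 receptor.

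The cultures gave transcript counts of C/EBP and NF-kB factors, while the lists below hold no AP-1 gene. Whether such factors act on the promoters of these genes here was not tested. Shown are the promoters of Il6 and of Saa3, Lcn2 and Slpi, the 3 genes that stood highest in edited MMTV-CAF relative to WT. Each is the 250 bases before the RefSeq start site in GRCm38.p6, written 5′ to 3′ on the strand of the gene, with capitals for every match, on either strand, to a C/EBP motif (TTNNGNAA), an AP-1 motif (TGANTCA) or the NF-kB motif. Saa3 lies at chr7:46711998-46719615, Lcn2 at chr2:32384637-32387739, Slpi at chr2:164354070-164356507 and Il6 at chr5:30013114-30019975. All 4 genes are protein-coding, and the windows of Lcn2, Slpi and Il6 end at the edge of the gene, while that of Saa3 lies inside the extent that RefSeq gives the gene.
Saa3 (chr7:46715677-46715926, minus strand): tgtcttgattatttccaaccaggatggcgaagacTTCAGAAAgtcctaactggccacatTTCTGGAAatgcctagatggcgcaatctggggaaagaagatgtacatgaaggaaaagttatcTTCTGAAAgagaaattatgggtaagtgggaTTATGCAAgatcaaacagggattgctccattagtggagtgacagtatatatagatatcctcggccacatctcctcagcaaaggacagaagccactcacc
Lcn2 (chr2:32387740-32387989, minus strand): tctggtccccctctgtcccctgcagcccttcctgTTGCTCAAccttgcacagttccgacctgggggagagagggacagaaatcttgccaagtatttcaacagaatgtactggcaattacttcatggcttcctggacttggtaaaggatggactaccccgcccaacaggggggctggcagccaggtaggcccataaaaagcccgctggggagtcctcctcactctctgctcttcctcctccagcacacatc
Slpi (chr2:164356508-164356757, minus strand): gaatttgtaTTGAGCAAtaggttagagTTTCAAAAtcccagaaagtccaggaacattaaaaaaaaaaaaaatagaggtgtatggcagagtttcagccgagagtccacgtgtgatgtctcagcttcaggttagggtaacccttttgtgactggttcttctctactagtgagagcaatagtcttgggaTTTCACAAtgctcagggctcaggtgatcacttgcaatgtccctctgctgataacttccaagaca
Il6 (chr5:30012864-30013113, plus strand): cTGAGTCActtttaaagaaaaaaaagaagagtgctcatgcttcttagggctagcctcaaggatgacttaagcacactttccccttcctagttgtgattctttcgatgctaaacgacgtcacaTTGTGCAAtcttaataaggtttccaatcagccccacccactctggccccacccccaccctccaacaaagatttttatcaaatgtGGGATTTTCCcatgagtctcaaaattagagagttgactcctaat
Saa3 held 4 matches to the C/EBP motif, Slpi 3, and Lcn2 and Il6 1 each. A C/EBP match was present in 8 of the 9 genes with an entry, including Il31ra and Il1rn, which were lower in edited cultures. Il6 alone of the 9 genes with an entry in the promoter table held an NF-kB match, 44 to 35 bases before its start site, together with an AP-1 match. Over all 32851 promoter windows of the same length, 36.8% held a C/EBP match, 3.9% an NF-kB match and 6.75% an AP-1 match. A STAT motif (TTCNNNGAA) was matched among these genes only in Il31ra and in 7.02% of all windows, and a homeodomain motif (TAATTA) only in Il33 and in 4.84% of all windows. All these shares are per window, while a gene was counted for a match before any of its start sites. Il1rn, Il33 and Il1rl1 have more than 1 start site, so the counts of genes and the shares are not in the same unit. The motifs overlap in part with each other's letters, and a match describes the sequence without showing that a factor binds there. Hp had no entry.

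**Figure D1:**
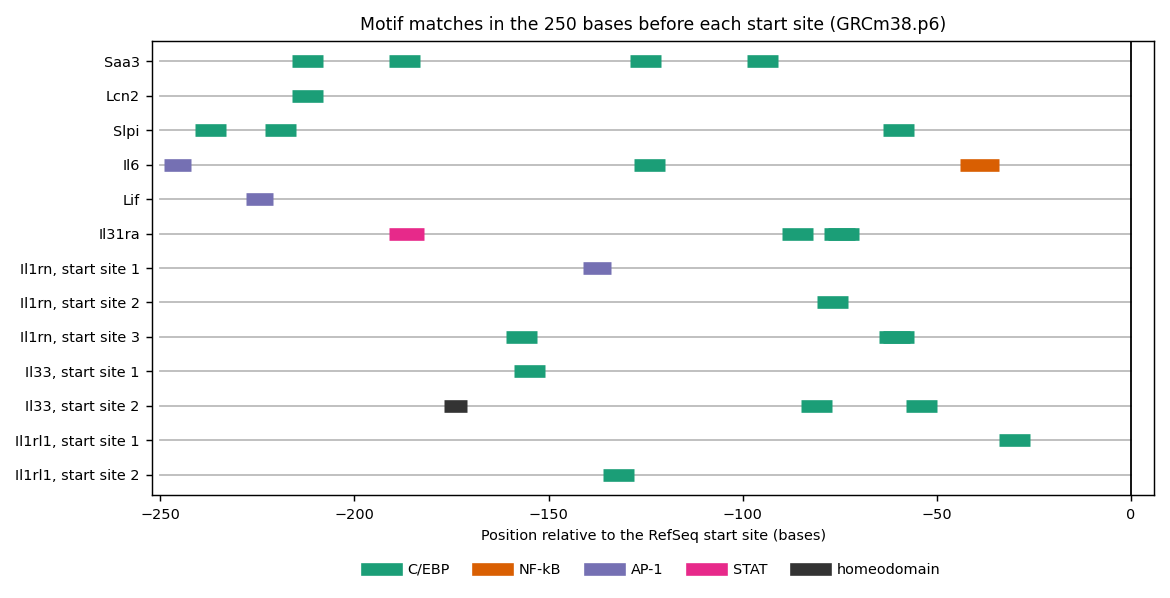
Positions of motif matches in the 250 bases before each RefSeq start site, in bases relative to the start site, for the 9 genes with an entry (Il1rn has 3 start sites, Il33 and Il1rl1 have 2). Coloured bars are matches on either strand, with 4 C/EBP matches before Saa3 and 1 NF-kB match, before Il6.

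Reads counted per gene summed to 69588655 to 134790440 in a culture, and 3 counts, taken here as the detection floor, stood for 0.0252 to 0.0425 CPM (counts scaled to the size of each library, with TMM factors) in the group averages. Prrx1 itself was at 181 CPM on average in WT MEF, 22.2 in mutant MEF and 120 in sgPrrx1 MEF. Its average was 147 CPM in WT and 64.9 in sgPrrx1 wound-healing fibroblasts, and 632 CPM in WT and 306 in sgPrrx1 MMTV-CAF. No culture with Prrx1 loss overlapped its WT group, although the transcript level does not show whether the edited gene still gives protein. Of 10 fibroblast markers, Col1a1, Col1a2, Col3a1 and Vim exceeded 100 CPM in every group, while Lum and Fap were under 2 CPM throughout. The others varied between groups. Dcn was at 48.8 CPM in WT MEF and 0.142 in mutant MEF, but at 32.4 in WT and 588 in sgPrrx1 MMTV-CAF. Pdgfra was at 142 CPM in WT MEF, 19.2 in mutant MEF and 16.6 in sgPrrx1 MEF. Pdgfrb was at 1066 CPM in WT and 252 in sgPrrx1 MMTV-CAF. The summed level of 4 neutrophil markers was at most 0.429 CPM in every culture. Of 9 leukocyte markers, Ptprc, Adgre1, Itgam, Cd3e and Cd79a were under 0.1 CPM in every group. Over the groups Cd14 was at 6.69 to 26.1 CPM, Cd68 at 0.698 to 2.44, Csf1r at 0.191 to 5.60 and Lyz2 at 0 to 0.614. The MMTV-CAF expressed Xist, at 428 CPM in WT and 342 in sgPrrx1 cultures, with Kdm5d and Ddx3y of the Y chromosome at 0. MEF and wound-healing fibroblasts had under 0.1 CPM of Xist and expressed Y-linked genes. Sex therefore cannot be told apart from fibroblast type for MMTV-CAF. Kdm5d was at 11.01 CPM in WT MEF and 0.0118 in mutant MEF, where Ddx3y was at 15.8 and 21.2 CPM. In wound-healing fibroblasts Ddx3y was at 20.95 CPM in WT and 2.04 in sgPrrx1 cultures, and Kdm5d at 10.45 and 12.88 CPM. These genes were looked at after the values were seen.

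**Figure D2:**
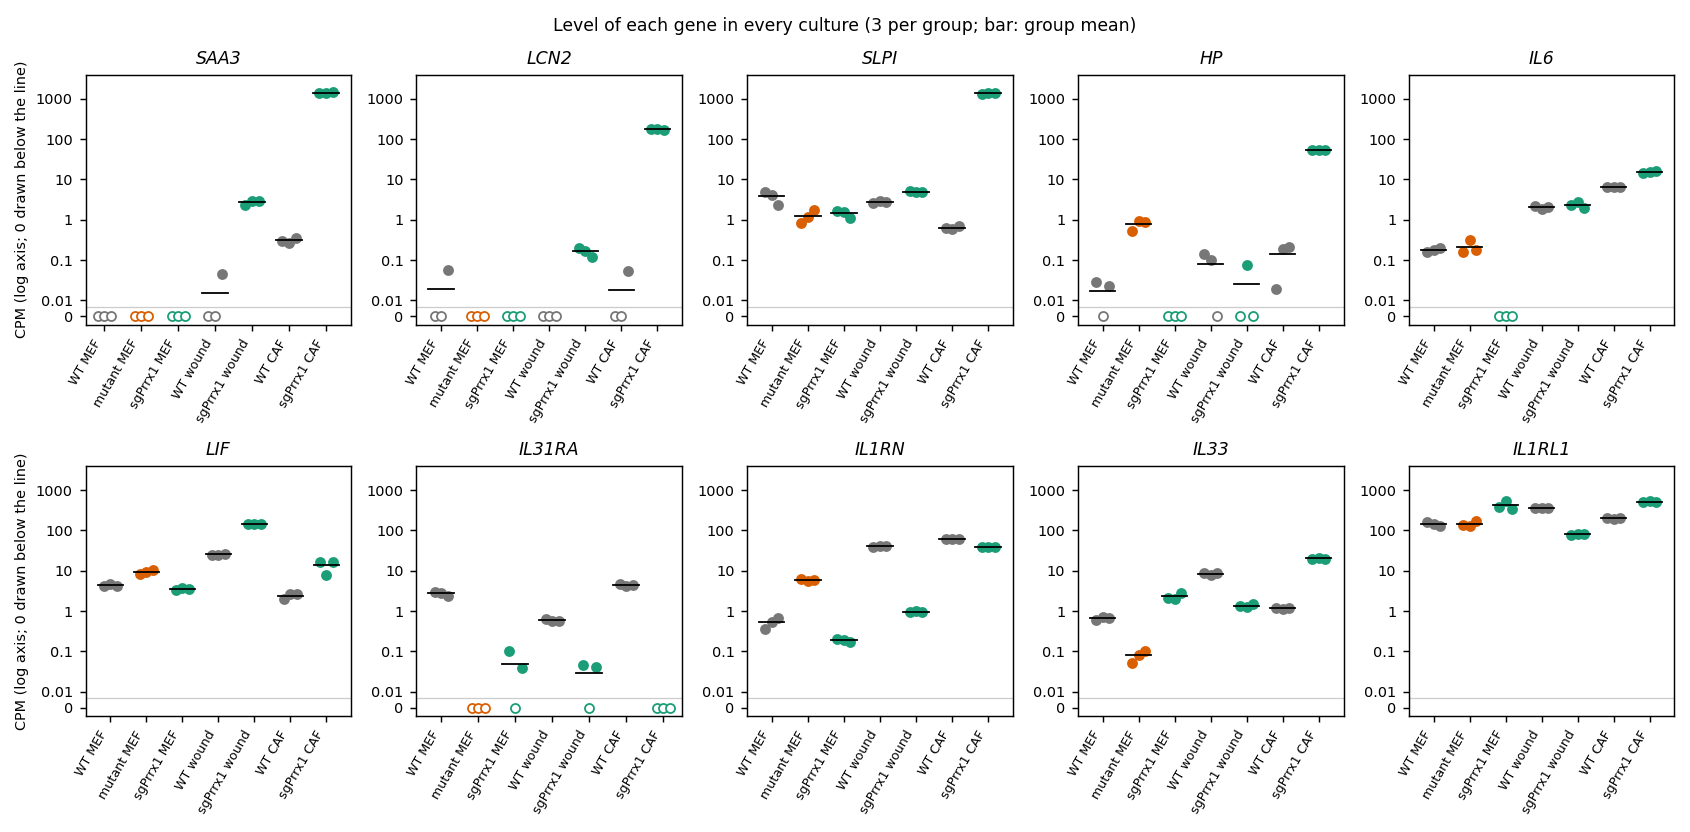
Level of the 10 genes in each of the 21 cultures, in CPM on a log axis, with cultures at 0 drawn as open circles below the grey line and a bar at the mean of 3 cultures; wound stands for wound-healing fibroblasts and CAF for MMTV-CAF, grey for WT, orange for Prrx1 mutant and green for sgPrrx1. SAA3, LCN2, SLPI and HP stand highest in sgPrrx1 MMTV-CAF, at averages of 1430, 177, 1379 and 54.1 CPM.

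Of the 10 genes, 8 passed the filter on low counts in mutant MEF and 7 in sgPrrx1 MEF, while 9 did so in wound-healing fibroblasts and all 10 in MMTV-CAF. Where no culture of 1 group reached the level that the filter asks for, a gene passed only through the group in which it was high and had to differ. Besides Il31ra, this held for Hp and Il33 in mutant MEF, Il6 in sgPrrx1 MEF, Saa3 and Lcn2 in wound-healing fibroblasts and Lcn2 in MMTV-CAF, whose levels are described without a test. Tests across all genes with edgeR called a gene changed at an adjusted p under 0.05, and a stricter call asked also for a change of 2-fold or more. In mutant MEF, 2 of the 5 genes tested rose and 1 fell, all of them by 2-fold or more, where 29.4% of all 13616 genes tested rose and 30.5% fell, or 9.64% and 14.5% with 2-fold. In sgPrrx1 MEF 2 of 5 rose and 2 fell, again all by 2-fold or more, beside 20.3% and 22.8% of all 13372 genes, or 1.58% and 8.97% with 2-fold. In wound-healing fibroblasts 2 of 6 rose and 3 fell, and 1 of the rises and 3 of the falls reached 2-fold, beside 38.3% and 39.3% of all 13939 genes, or 8.57% and 7.06% with 2-fold. In MMTV-CAF 5 of 6 rose, each by 2-fold or more, and 1 fell by less, beside 41.2% and 41.9% of all 13903 genes, or 11.5% and 12.8% with 2-fold. These shares show how widely the transcriptome differed between the lines compared, and a call by itself set no gene apart. The shares over all genes include genes that passed the filter through 1 group, which the counts of the 10 genes leave out. The counts of calls are a description.

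**Figure D3:**
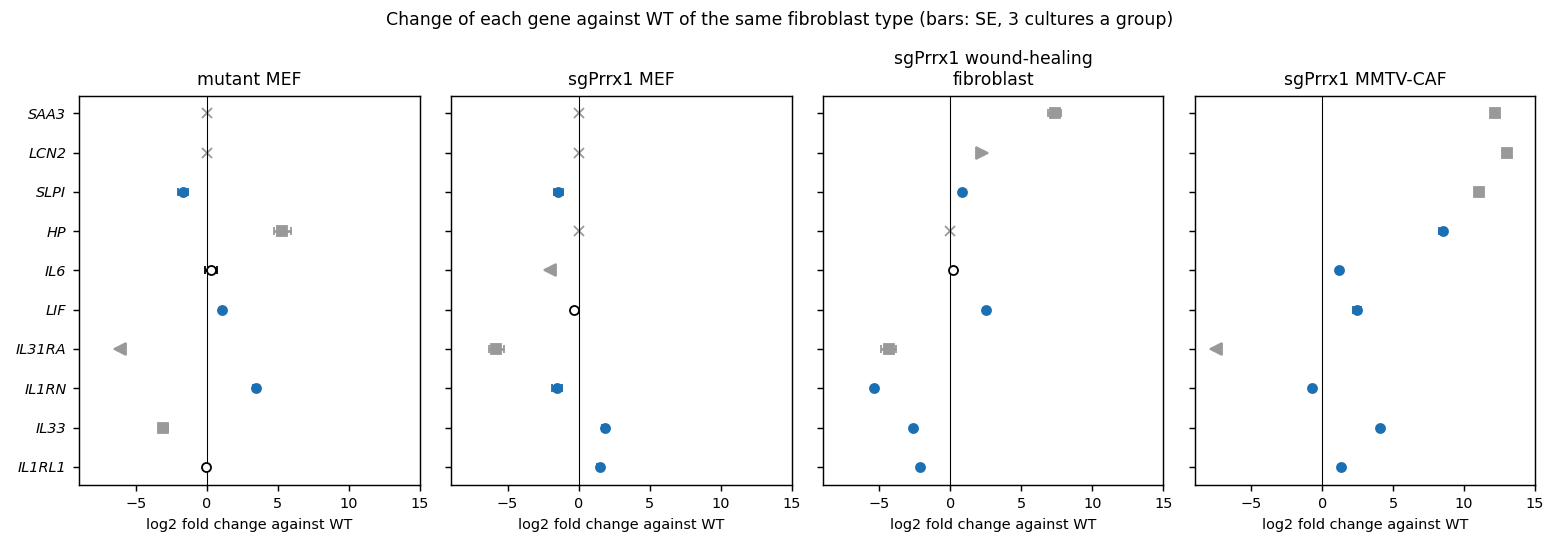
Log2 fold change of each gene against WT of the same fibroblast type, with the SE as a bar (3 cultures a group). Filled blue circles passed an adjusted p of 0.05, open circles did not, grey squares and triangles were described without a test, with triangles for bounds where 1 group was at 0 counts, and crosses mark genes below the filter, which have no value; IL33 and IL1RL1 lie to the right in sgPrrx1 MEF and MMTV-CAF and to the left in wound-healing fibroblasts.

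Saa3 encodes an inducible serum amyloid A made outside the liver. In sgPrrx1 MMTV-CAF its level was 1410, 1423 and 1456 CPM, against 0.299, 0.270 and 0.355 CPM in WT MMTV-CAF. The difference, 12.15 on the log2 scale (SE 0.068, n = 3), is the value for which the gene was chosen, and Saa3 alone took 0.151% to 0.155% of all counts in the edited cultures. In wound-healing fibroblasts, which the choice did not use, Saa3 had 206, 278 and 222 counts in the sgPrrx1 cultures and 0, 0 and 4 in WT. Saa3 passed the filter there only through the edited cultures and had to differ. The counts put the ratio at 177, described without a test. Its size rests on WT cultures near 0, of which replicate 3 alone had counts, and the fitted log2 fold change of 7.34 became 10.88 without that culture, a value that depends on the prior count. The same gene was at 0 counts in all 9 MEF cultures. Thus the edited cultures ranked MMTV-CAF, wound-healing fibroblast and MEF without overlap, with averages of 1430, 2.75 and 0 CPM.

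Lcn2 encodes lipocalin 2, which binds bacterial siderophores. It was at 174, 183 and 173 CPM in sgPrrx1 MMTV-CAF, where WT cultures had 0, 0 and 7 counts. The counts put the ratio at 8957, described without a test, since Lcn2 passed the filter there only through the edited cultures. The only WT culture above 0 was replicate 3, without which the fitted log2 fold change went from 13.03 to 17.32 and depended on the prior count. In wound-healing fibroblasts Lcn2 was also higher in the edited cultures, at a far lower level, with 18, 16 and 9 counts in the sgPrrx1 cultures and 0 in all WT cultures. That is at least 4.71-fold higher, against a floor of 3 counts in each WT culture. In MEF it was below the filter, with 5 counts in 1 WT culture and 0 in the other 8 MEF cultures.

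Slpi encodes a secreted inhibitor of neutrophil elastase. It stood at 1341, 1398 and 1400 CPM in sgPrrx1 MMTV-CAF and at 0.607, 0.575 and 0.710 in WT, a difference of 11.07 on the log2 scale (SE 0.068) that is again the reason for its choice. WT MMTV-CAF had the lowest level of all 7 groups and sgPrrx1 MMTV-CAF the highest. In wound-healing fibroblasts the rise was small, from 2.66, 2.87 and 2.72 CPM to 5.08, 4.97 and 4.75 CPM (log2 fold change 0.84, SE 0.080, adjusted p = 1.44e-05). The MEF went the other way: WT cultures had 4.93, 4.22 and 2.37 CPM and mutant cultures 0.851, 1.18 and 1.702 CPM, so that Slpi fell by 1.65 on the log2 scale (SE 0.35, adjusted p = 0.00575). sgPrrx1 MEF, at 1.63, 1.60 and 1.11 CPM, also fell (log2 fold change −1.42, SE 0.30, adjusted p = 0.00911), measured against the same WT cultures.

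Hp encodes haptoglobin, the plasma scavenger of free haemoglobin. It was at 53.6, 54.6 and 53.9 CPM in sgPrrx1 MMTV-CAF and had 2, 22 and 28 counts in WT, a rise of 8.50 on the log2 scale (SE 0.25, adjusted p = 1.9e-08). Mutant MEF had 41, 78 and 61 counts against 2, 0 and 2 in WT MEF, a ratio of 44.0. Hp passed the filter there only through the mutant cultures, so this difference was not tested. All 3 sgPrrx1 MEF cultures were at 0, at least 18.4-fold lower than mutant MEF. Hp was below the filter in wound-healing fibroblasts, with 13, 8 and 0 counts in WT and 0, 7 and 0 in sgPrrx1 cultures.

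Marker lists of other cell types also differed between groups, mostly through single genes. In MMTV-CAF the 8 epithelial markers summed to 52.1 to 54.2 CPM in WT and 0.204 to 0.339 CPM in sgPrrx1 cultures, nearly all of the WT sum being Krt19. The 9 leukocyte markers summed to 14.0 to 14.4 CPM in WT and 26.6 to 27.7 CPM in sgPrrx1 cultures, through Cd14 (6.69 and 26.1 CPM), while Csf1r was at 5.60 and 0.191 CPM and Ptprc, Adgre1, Itgam and Cd3e were under 0.1 CPM in both. Of the 4 adipocyte markers only Fabp4 was detected above 0.1 CPM, at 6.89 CPM in WT and 186 CPM in sgPrrx1 cultures. The fibroblast genes Thy1 and Pdgfra averaged 57.3 and 939 CPM in WT and 0.641 and 1835 CPM in sgPrrx1 cultures. In mutant MEF the epithelial markers summed to 197.5 to 238.9 CPM, beside 17.8 to 19.96 CPM in WT MEF and 24.5 to 28.6 in sgPrrx1 MEF, again through Krt19 (218.7, 12.3 and 22.7 CPM on average). Krt14 and Cdh1 of the same list were lower in mutant MEF, at 0 and 0.0196 CPM, than in WT MEF, at 5.88 and 0.503 CPM. Krt8 and Krt18 were higher, at 0.433 and 0.595 CPM in mutant MEF beside 0.0384 and 0 CPM in WT MEF. In wound-healing fibroblasts the 4 endothelial markers summed to 286.9 to 293 CPM in WT and 140 to 144.9 CPM in sgPrrx1 cultures, nearly all of it Kdr, with Pecam1 and Cdh5 under 0.1 CPM in both. The collagen gene Col1a2 was at 1873 CPM in these WT cultures and 106.5 CPM in the edited ones, and Thy1 at 49.8 and 2.88 CPM. The part of these differences in the results was not tested, and in such bulk samples fewer cells of a type and less RNA per cell cannot be told apart.

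Il6, the ligand that signals through Il6ra and gp130, was at 6.43, 6.55 and 6.48 CPM in WT MMTV-CAF and 14.6, 14.9 and 16.0 CPM in sgPrrx1 MMTV-CAF. The rise was 1.21 on the log2 scale (SE 0.044, adjusted p = 6.07e-08). In wound-healing fibroblasts the groups overlapped, at 2.22, 1.88 and 2.04 CPM in WT and 2.27, 2.80 and 1.94 in sgPrrx1 cultures (log2 fold change 0.19, SE 0.15, adjusted p = 0.281). MEF of every genotype had little Il6. WT MEF had 11, 12 and 17 counts and mutant MEF 12, 27 and 12 (log2 fold change 0.28, SE 0.41, adjusted p = 0.575). The 3 sgPrrx1 MEF cultures were at 0, at least 4.14-fold lower than WT and at least 5.1-fold lower than mutant MEF.

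Lif, a cytokine of the same family that signals through Lifr and gp130, had its highest level in wound-healing fibroblasts. WT cultures were at 25.0, 24.7 and 26.3 CPM and sgPrrx1 cultures at 146, 146 and 148 CPM, a rise of 2.53 on the log2 scale (SE 0.028, adjusted p = 6.38e-11). In MMTV-CAF it rose from a lower level, 1.999, 2.657 and 2.597 CPM in WT and 16.5, 7.93 and 16.5 CPM in sgPrrx1 cultures (log2 fold change 2.47, SE 0.29, adjusted p = 8.54e-05). The second of the 3 edited MMTV-CAF cultures thus held less Lif than the others, and all 3 exceeded WT. In mutant MEF Lif rose from 4.22, 4.59 and 4.11 CPM to 8.46, 9.50 and 10.2 CPM (log2 fold change 1.10, SE 0.11, adjusted p = 0.000232). sgPrrx1 MEF were slightly under WT, at 3.31, 3.78 and 3.47 CPM (log2 fold change −0.30, SE 0.12, adjusted p = 0.0739), and this value passed the threshold only when all 9 MEF cultures were fitted in 1 model (adjusted p = 0.0442).

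Il31ra encodes the chain that pairs with Osmr to sense interleukin-31. It was at 2.96, 2.81 and 2.43 CPM in WT MEF, and sgPrrx1 MEF had 7, 0 and 3 counts. The counts put it 57.6-fold lower there, described without a test, against WT cultures that entered the choice of the gene. The other 3 groups with Prrx1 loss, on which the gene had been picked, were also low. Mutant MEF were at 0 in all cultures, at least 69.3-fold below WT. sgPrrx1 wound-healing fibroblasts had 4, 0 and 3 counts against 58, 46 and 48 in WT, and sgPrrx1 MMTV-CAF were at 0 against 510, 490 and 595 counts, at least 179-fold lower. The 4 loss groups overlapped each other and lay below each of the WT groups, whose averages were 4.51 CPM in MMTV-CAF, 2.73 in MEF and 0.586 in wound-healing fibroblasts.

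Il1rn, the secreted antagonist that occupies the interleukin-1 receptor without signalling, fell in all 3 edited types. It was at 39.3, 40.3 and 41.5 CPM in WT wound-healing fibroblasts and 0.928, 0.977 and 0.972 CPM in sgPrrx1 ones, a fall of 5.40 on the log2 scale (SE 0.046, adjusted p = 2.11e-11). In MMTV-CAF it fell only from 60.5, 59.7 and 62.8 CPM to 38.5, 37.8 and 38.1 CPM (log2 fold change −0.70, SE 0.024, adjusted p = 4.73e-08). In both types no sgPrrx1 culture reached a WT culture. Mutant MEF rose, from 0.363, 0.533 and 0.690 CPM in WT MEF to 6.29, 5.61 and 6.03 CPM (log2 fold change 3.46, SE 0.24, adjusted p = 3.47e-05). sgPrrx1 MEF fell, with 14, 13 and 13 counts against 25, 37 and 60 in WT (log2 fold change −1.50, SE 0.35, adjusted p = 0.014). The call in sgPrrx1 MEF ended without WT replicate 2 (adjusted p = 0.0501), without sgPrrx1 replicate 2 (adjusted p = 0.053) or without sgPrrx1 replicate 3 (adjusted p = 0.0521).

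Il33 and its receptor gene Il1rl1 moved in the same direction in each edited type. In sgPrrx1 MMTV-CAF Il33 was at 20.04, 20.83 and 19.79 CPM against 1.21, 1.13 and 1.16 CPM in WT, a rise of 4.10 on the log2 scale (SE 0.048, adjusted p = 1.79e-10). Il1rl1 rose there from 199, 190 and 208 CPM to 513, 526 and 500 CPM (log2 fold change 1.35, SE 0.033, adjusted p = 7.03e-09). In sgPrrx1 MEF Il33 rose from 0.609, 0.691 and 0.667 CPM to 2.13, 2.04 and 2.86 CPM (log2 fold change 1.82, SE 0.20, adjusted p = 0.000635). Receptor and ligand rose together again, Il1rl1 going from 163, 146 and 126 CPM to 371, 538 and 344 CPM (log2 fold change 1.51, SE 0.19, adjusted p = 0.000983). Wound-healing fibroblasts showed the reverse: Il33 went from 8.91, 7.82 and 8.71 CPM in WT to 1.30, 1.23 and 1.52 CPM (log2 fold change −2.66, SE 0.10, adjusted p = 4.12e-08). Il1rl1 fell with it, from 357, 363 and 354 CPM to 74.9, 83.5 and 79.5 CPM (log2 fold change −2.18, SE 0.039, adjusted p = 6e-10). In mutant MEF ligand and receptor parted: Il33 had 4, 7 and 7 counts against 42, 48 and 58 in WT (log2 fold change −3.06, SE 0.34, described without a test) and Il1rl1 overlapped WT at 137, 131 and 167 CPM (log2 fold change −0.03, SE 0.13, adjusted p = 0.876). Counts per gene do not separate the membrane receptor from the soluble decoy form that Il1rl1 also encodes, and RefSeq gives the gene 2 of the start sites shown in the plot of promoter motifs.

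A direct comparison of sgPrrx1 with mutant MEF, which avoids the shared WT cultures, found 3 of the 4 genes tested different, beside 56.2% of all 13379 genes. Il1rl1 was 2.9-fold higher in sgPrrx1 MEF (log2 1.53, SE 0.19, adjusted p = 0.000694). Il1rn was 31.4-fold lower (SE 0.15 on the log2 scale, adjusted p = 2.4e-06) and Lif 2.65-fold lower (SE 0.10, adjusted p = 6.74e-05). Slpi did not differ beyond its spread (log2 0.23, SE 0.29, adjusted p = 0.538). Il33 was 29.5-fold higher (log2 4.88, SE 0.29), but it passed the filter only through sgPrrx1 MEF and was not tested, as were Hp and Il6, which were at 0 in sgPrrx1 MEF. The allele and the line cannot be told apart in this comparison.

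Whether the change in sgPrrx1 cultures depended on fibroblast type was tested as an interaction over MEF, wound-healing fibroblasts and MMTV-CAF for the 4 genes that could be tested in each of the 3 types. All 4 passed the threshold, and so did 80.1% of all 14972 genes. The adjusted p was 1.93e-14 for Il33, 8.86e-14 for Il1rn, 4.36e-11 for Il1rl1 and 2.94e-07 for Lif. For Il1rn, the fall in wound-healing fibroblasts exceeded that in MMTV-CAF by 4.75 on the log2 scale, and for Il33 the 2 types lay 6.81 apart. For Lif the change in each of these types lay 2.79 above that in MEF.

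The other genes of these pathways were counted in 4 lists, leaving out of each count the genes that passed the filter through 1 group. The shares and medians over all genes set beside these counts keep such genes. Of 20 further acute-phase genes, 7 were tested in MMTV-CAF, of which 6 rose and none fell, 5 of the rises by 2-fold or more, beside 41.2% of all genes that rose and 11.5% with 2-fold. Their median log2 fold change was 3.899, beside −0.0032 over all genes. Lbp, which hands lipopolysaccharide to Cd14, had the largest rise among them, from 7.99, 7.95 and 6.96 CPM to 219, 212 and 214 CPM (log2 fold change 4.80, SE 0.059, adjusted p = 2.15e-10). Cp, the copper carrier ceruloplasmin, came next, from 19.7, 18.8 and 20.7 CPM to 472, 483 and 484 CPM (log2 fold change 4.58, SE 0.036, adjusted p = 3.95e-11). Saa1, Saa2, Saa4 and Orm1 passed the filter only through the edited cultures, with Saa4 and Saa1 going from 0 in every WT culture to averages of 0.45 and 0.394 CPM, at least 17.6-fold and 15.4-fold. These paralogues of Saa3 share sequence with it, so reads could be divided uncertainly between them, at levels far under that of Saa3. In wound-healing fibroblasts 1 of 5 tested rose, Serpina3n (log2 fold change 2.16, SE 0.31, adjusted p = 0.000218), and 2 fell, Ptx3 (−2.13, SE 0.038, adjusted p = 6.12e-10) and Cp (−1.72, SE 0.097, adjusted p = 4.67e-07), beside 38.3% and 39.3% of all genes. Of 4 tested in mutant MEF, Cp rose by 0.52 (SE 0.14, adjusted p = 0.0137) and 3 fell, beside 29.4% and 30.5%, with Serpina3g, a serine protease inhibitor, the largest fall (−5.13, SE 0.40, adjusted p = 6.05e-05). All 3 tested in sgPrrx1 MEF fell, beside 22.8% of all genes, the largest of them Ptx3 (−1.73, SE 0.085, adjusted p = 2.4e-05). Serpina3g went there from 4.14 CPM on average to 0 in every culture, at least 97.5-fold lower, and Lbp from 0.307 CPM to 0, both without a test.

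**Figure D4:**
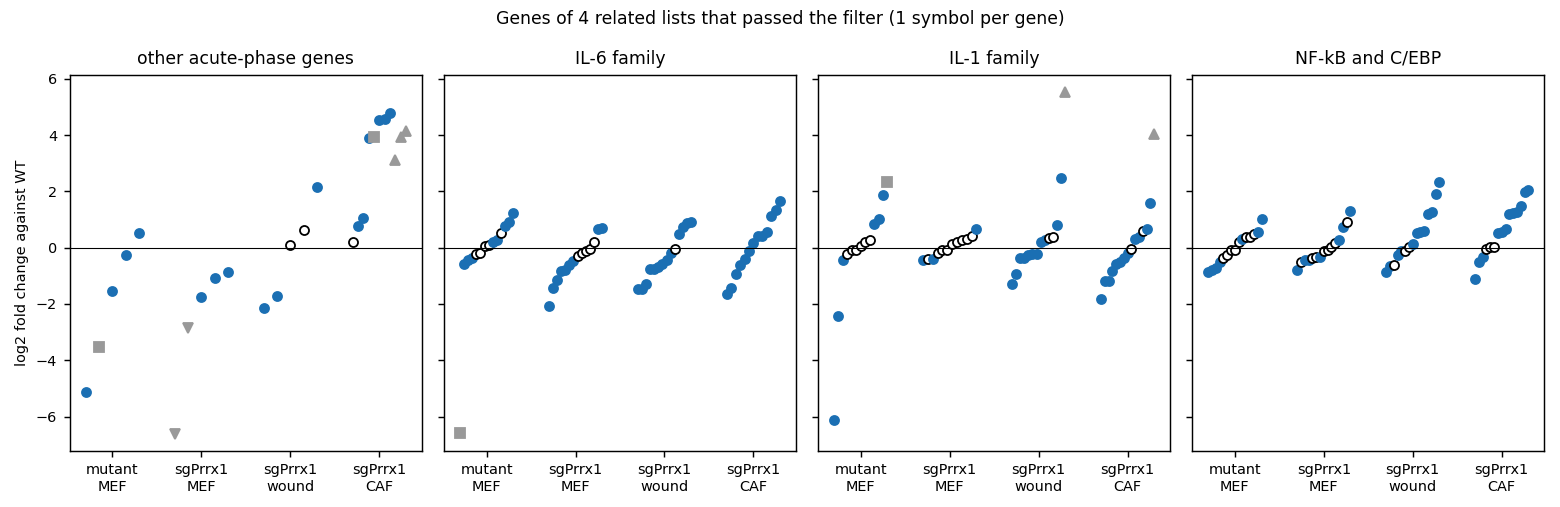
Log2 fold change against WT for the genes of 4 lists that passed the filter, 1 symbol per gene and sorted within each group; blue passed an adjusted p of 0.05, open circles did not, and grey symbols passed the filter through 1 group and were not tested, with triangles for bounds where a group was at 0 counts. The acute-phase list lies above 0 in sgPrrx1 MMTV-CAF, where 6 of 7 tested rose, and mostly below 0 in both MEF comparisons.

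Of 16 ligands, receptors and mediators of the interleukin-6 family, 13 were tested in MMTV-CAF, where 7 rose and 6 fell, beside 41.2% and 41.9% of all genes (median 0.18 beside −0.0032 over all genes). Lifr, the receptor of Lif, rose from 64.1, 61.3 and 64.6 CPM to 137, 143 and 142 CPM (log2 fold change 1.13, SE 0.027, adjusted p = 5.15e-09). The shared signal-transducing chain gp130 (Il6st) rose by 0.56 on the log2 scale (SE 0.017, adjusted p = 1.9e-08), and Il6ra by 0.42 (SE 0.098, adjusted p = 0.00436). Socs3, the feedback inhibitor that STAT3 induces, rose by 1.34 (SE 0.039, adjusted p = 1.71e-08) and Ctf1 by 1.67 (SE 0.20, adjusted p = 7.7e-05), while the ligands Clcf1 and Il11 fell by 1.63 and 1.44 (adjusted p = 7.23e-09 and 7.55e-05). In wound-healing fibroblasts 4 of 14 rose and 9 fell, beside 38.3% and 39.3% (median −0.51 beside 0.0044). The ligand Clcf1 and the receptor gene Cntfr rose most, by 0.90 (SE 0.054, adjusted p = 6.42e-07) and 0.88 (SE 0.075, adjusted p = 6.81e-06). Socs3 fell there from 40.5, 38.6 and 39.3 CPM to 13.9, 13.7 and 15.1 CPM (log2 fold change −1.48, SE 0.043, adjusted p = 9.09e-09), and Il6st from 171, 171 and 176 CPM to 64.3, 64.2 and 61.3 CPM (log2 fold change −1.46, SE 0.025, adjusted p = 4.71e-10). Osmr, the partner of Il31ra, fell by 1.29 (SE 0.049, adjusted p = 4.17e-08) and Lifr by 0.42 (SE 0.039, adjusted p = 1.25e-05) in the same cultures in which Lif rose. In sgPrrx1 MEF 2 of 14 rose, Socs3 by 0.71 and Clcf1 by 0.68 (adjusted p = 0.00557 and 0.00106), and 7 fell, beside 20.3% and 22.8% (median −0.39 beside 0.0017), with Cntfr (−2.08, SE 0.23, adjusted p = 0.000635) and Lifr (−1.42, SE 0.082, adjusted p = 4.2e-05) the largest falls. In mutant MEF 5 of 13 rose and 3 fell, beside 29.4% and 30.5% (median 0.091 beside 0.0094), Clcf1 (1.23, SE 0.10, adjusted p = 8.21e-05) and Osmr (0.92, SE 0.12, adjusted p = 0.00071) leading the rises and Il11ra1 (−0.56, SE 0.17, adjusted p = 0.0251) the falls. Cntfr, not tested there, went from 1.798 to 0.0172 CPM. These 8 calls became 5 without WT MEF replicate 1, 2 or 3, 4 without mutant replicate 2 and 3 without mutant replicate 3. Calls over all genes in those smaller fits are not given here, so the drop is a description. Osm and Il31 did not pass the filter in any comparison.

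Of 17 further genes of the interleukin-1 family, 14 were tested in MMTV-CAF, with 4 higher and 8 lower, beside 41.2% and 41.9% of all genes (median −0.27 beside −0.0032). Il1a, an agonist of the receptor that Il1rn blocks, was at 0 in every WT culture of MMTV-CAF and of wound-healing fibroblasts and was not tested. It reached 0.328, 0.406 and 0.518 CPM in sgPrrx1 MMTV-CAF, at least 16.3-fold higher. In sgPrrx1 wound-healing fibroblasts it reached 1.48, 1.86 and 1.57 CPM, at least 46.9-fold higher. Il1rap, the co-receptor that Il1rl1 needs to signal, followed Il1rl1 in direction, with a rise of 0.66 in MMTV-CAF (SE 0.018, adjusted p = 1.16e-08) and a fall of 1.27 in wound-healing fibroblasts (SE 0.045, adjusted p = 2.82e-08). In sgPrrx1 MEF its value of 0.30 did not pass (SE 0.11, adjusted p = 0.0625). Il1rl2, the receptor of interleukin-36, fell by 1.81 in MMTV-CAF (SE 0.038, adjusted p = 3.03e-09), and Il18 fell there by 1.19 (SE 0.10, adjusted p = 1.13e-05) while Il18rap, a chain of its receptor, rose by 1.59 (SE 0.14, adjusted p = 1.02e-05). In wound-healing fibroblasts, with 4 higher and 7 lower of 13 beside 38.3% and 39.3%, Il1rl2 rose by 2.48 from under 0.3 CPM (SE 0.41, adjusted p = 0.000499) and Il18rap fell by 0.93 (SE 0.11, adjusted p = 8.06e-05). Mutant MEF had 3 higher and 3 lower of 12, beside 29.4% and 30.5%. Il1rl2 fell there from 6.25, 5.31 and 5.77 CPM to 0.181, 0.059 and 0 CPM (log2 fold change −6.13, SE 0.60, adjusted p = 0.000179) and Irak3, an inhibitory kinase, by 2.43 (SE 0.11, adjusted p = 7.11e-06), while Il18 rose by 1.87 (SE 0.26, adjusted p = 0.000839). In sgPrrx1 MEF 1 of 12 was higher, Irak3 (0.66, SE 0.071, adjusted p = 0.000564), and 2 were lower, Irak2 (−0.42, SE 0.12, adjusted p = 0.0281) and Il1rl2 (−0.41, SE 0.11, adjusted p = 0.0224), beside 20.3% and 22.8%. These 3 calls became 5 without WT MEF replicate 3 and 1 without sgPrrx1 replicate 2, again without the calls over all genes in those fits.

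All 15 genes listed for NF-kB, C/EBP and their feedback were tested in each comparison. In MMTV-CAF 9 rose and 3 fell, beside 41.2% and 41.9% of all genes (median 0.55 beside −0.0032), led by Bcl3, a nuclear co-regulator of NF-kB, from 16.5, 17.4 and 15.7 CPM to 72.8, 67.5 and 66.4 CPM (log2 fold change 2.04, SE 0.051, adjusted p = 7.47e-09). Cebpd, a C/EBP factor of the acute-phase response, rose from 70.4, 77.8 and 71.8 CPM to 300, 290 and 295 CPM (log2 fold change 1.99, SE 0.040, adjusted p = 2.45e-09). Cebpa and Rel fell by 1.11 and 0.50 (adjusted p = 1.69e-06 and 0.000726). In wound-healing fibroblasts 8 rose and 4 fell, beside 38.3% and 39.3% (median 0.13 beside 0.0044), led by Nfkbiz, the inducible nuclear inhibitor-like protein needed for Lcn2 and Il6 induction, from 18.45, 17.99 and 17.86 CPM to 91.0, 89.3 and 92.5 CPM (log2 fold change 2.33, SE 0.028, adjusted p = 8.9e-11). Tnfaip3, which encodes the feedback inhibitor A20, rose by 1.92 (SE 0.16, adjusted p = 7.07e-06), while the largest falls were those of Cebpa (−0.86, SE 0.20, adjusted p = 0.00364) and Nfkbie (−0.65, SE 0.087, adjusted p = 0.000143), and Cebpd fell by 0.26 (SE 0.034, adjusted p = 0.000139). Thus Cebpd moved in opposite directions in the 2 edited types, a difference that was not tested, and Nfkbiz rose in both. Mutant and sgPrrx1 MEF each had 3 higher and 4 lower, beside 29.4% and 30.5% of all genes in mutant and 20.3% and 22.8% in sgPrrx1 MEF, with Cebpa the largest rise in both (1.01, SE 0.19, adjusted p = 0.00324 and 1.30, SE 0.17, adjusted p = 0.00145). Rel rose next in mutant MEF (0.54, adjusted p = 0.0119) and Tnfaip3 in sgPrrx1 MEF (0.74, adjusted p = 0.0201). The largest falls were of Relb and Bcl3 in mutant MEF (−0.87 and −0.80, adjusted p = 0.000599 and 0.00122) and of Nfkbiz and Nfkbie in sgPrrx1 MEF (−0.81 and −0.43, adjusted p = 0.00103 and 0.0442). The 7 calls in sgPrrx1 MEF became 3 without WT replicate 1, WT replicate 2 or sgPrrx1 replicate 3, and 2 without sgPrrx1 replicate 2. For these smaller fits, too, the calls over all genes are not given here. Cebpb stood apart in single cultures, at 2.92 CPM in WT MEF replicate 2 beside 41.3 and 54.9 in the others, and at 11.2 CPM in sgPrrx1 wound-healing fibroblast replicate 3 beside 39.7 and 38.4, so its values in these types are uncertain. Tnfaip3 was also lower in that sgPrrx1 replicate 3, at 91.6 CPM beside 150.9 and 146.5, with WT cultures at 34.0, 34.0 and 34.6 CPM.

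Genes whose averages over the 7 groups ran most like those of 3 of the genes were sought among 15093 genes, by the mean absolute difference of log2 CPM profiles, each centred on its own mean. Lcn2 was closest to Saa3 (1.68 on the log2 scale), followed by Serpina3i (1.72) and Steap4 (1.93). Steap4, a metalloreductase, was at 455 CPM in sgPrrx1 MMTV-CAF and at most 1.07 CPM elsewhere. Closest to Il6 were Oas1a (0.51), the chemokine gene Ccl7 (0.54) and Rnf144a (0.68). Il33 had Mycn (0.89), Gm8773 (0.93) and Col5a3 (0.95) as nearest. With 7 averages and many levels near 0, these distances describe the profiles only.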

How the data were processed

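RNA from 21 cultures was sequenced as paired reads from TruSeq RNA v2 libraries. The authors trimmed reads with Trimmomatic, aligned them to mm10 with STAR and deposited HTSeq counts per gene, whole numbers without normalization, in 3 tables, 1 per fibroblast type. The methods section on murine fibroblasts and human CAF names ComBat-seq batch correction at its end, after the human alignment; whether it was applied to the mouse counts, and over which batches, is not given in the sources used here. Replicates of a group differed by more than sampling noise, and none was merged. Each comparison used edgeR 4.0.16 in R 4.3.3 on its 6 cultures: filterByExpr, TMM scaling, the quasi-likelihood test and Benjamini-Hochberg adjustment over all genes, with a threshold of 0.05. The method was tested on simulated data. SE is the log2 fold change divided by the root of F. CPM use TMM factors over all cultures with no pseudocount. For a group at 0, folds are bounds against 3 counts per culture. Ratios of low counts are of counts summed over a group. Exact permutation of 3 against 3 cultures cannot go below p = 0.1, so no such test was used.

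The genes, lists and marker sets were chosen with earlier results of these data known, and the motifs after the values were seen. After the values were seen, genes with no culture of 1 group at the filter's minimum (the CPM of 10 counts in the median library) were described and not tested, in the pathway lists too, and so was Il31ra in sgPrrx1 MEF, where a test had been planned. Named genes are the 10 genes and, per list and comparison, at most the 2 largest rises and falls called, with receptors and ligands of the 10 genes and single genes named for a doubt or because they were not tested. Alternatives were DESeq2 1.42.0, RLE scaling, library totals alone, no filter, at least 10 counts in every culture, leaving out each culture, a replicate block, and all 9 MEF cultures in 1 model. Promoters and positions come from RefSeq tables of GRCm38.p6, the same assembly as mm10, where 9 of the 10 genes had a promoter entry.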

Additional observations from a re-analysis of the deposited data

Results flagged for a closer look

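The change in sgPrrx1 cultures differed between MEF, wound-healing fibroblasts and MMTV-CAF for the 4 genes tested, by the edgeR interaction test over all 14972 genes (80.1% of which passed). The adjusted p-values were 8.86e-14 for Il1rn, 2.94e-07 for Lif, 4.36e-11 for Il1rl1 and 1.93e-14 for Il33. Il33 and Il1rl1 rose in sgPrrx1 MEF and MMTV-CAF and fell in wound-healing fibroblasts. Il1rn fell in each type, by 1.499, 5.40 and 0.70 on the log2 scale in MEF, wound-healing fibroblasts and MMTV-CAF. Lif rose in wound-healing fibroblasts and MMTV-CAF and did not pass the threshold in sgPrrx1 MEF. The types differ in strain, tissue or sex, and each edited type may be 1 line, which cannot be told apart from type.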

How the results depend on the processing

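Over the alternatives that changed the test, the scaling, the filter or the model, 239 of 247 log2 fold changes of the 10 genes kept their direction and their side of the threshold or, where not tested, stayed within their spread. The exceptions were Il1rl1 in mutant MEF, which turned to 0.062 with library totals alone and was not called in either fit, Lif in sgPrrx1 MEF (adjusted p = 0.0442 with all 9 MEF cultures in 1 model), and 6 values with a group at 0 under DESeq2, none of them tested here. Genes that passed the filter through 1 group were also counted in an alternative chosen after seeing the data. This gave 5 calls of 7 genes in mutant MEF, where 29.4% of all genes rose and 30.5% fell. It gave 6 calls in sgPrrx1 against mutant MEF and 7 in the interaction, beside 56.2% and 80.1% of all genes. The added genes passed only through the group in which they were high and had to differ, so these counts are a description. Leaving out 1 culture kept 236 of 246 values, gave 3 calls each time in mutant MEF and 3 to 4 in sgPrrx1 MEF, and turned the direction of 4 values that were not called: Il1rl1 in mutant MEF 3 times (range −0.126 to 0.0715) and Il6 there once (−0.11 to 0.47). Of the others, 3 were Il1rn in sgPrrx1 MEF and 3 were untested values of Saa3, Lcn2 and Il6 near 0 counts. Calls over all genes with 1 culture left out are not given here, so the counts of calls in those fits are a description. Library totals alone shifted the median of all genes to 0.13 in MMTV-CAF and 0.119 in wound-healing fibroblasts, and to −0.12 in sgPrrx1 against mutant MEF. The split of all calls in wound-healing fibroblasts went from 5332 higher and 5479 lower to 6468 and 4260, while levels moved to between 0.908 and 1.08 times those printed. Among the pathway lists, 5 acute-phase genes were called in wound-healing fibroblasts with library totals alone and 5 interleukin-1 genes in sgPrrx1 MEF with DESeq2, against 3 each in the report. Over all 13365 genes DESeq2 called 3060 higher and 3342 lower in sgPrrx1 MEF. Same-numbered cultures did not deviate together (correlations from −0.223 to 0.13), so the numbers pair nothing. With a replicate block the calls were 3 of the 5 genes tested in mutant MEF, 4 of 5 in sgPrrx1 MEF and 6 of 6 in MMTV-CAF. They were 5 of 6 in wound-healing fibroblasts, 4 of 4 in the interaction and 3 of 4 in sgPrrx1 against mutant MEF. Over all genes the block called 3097 higher and 3360 lower of 13616 in mutant MEF, and 3213 and 3416 of 13372 in sgPrrx1 MEF. It called 5618 and 5702 of 13903 in MMTV-CAF and 5157 and 5362 of 13939 in wound-healing fibroblasts. In sgPrrx1 against mutant MEF it called 2682 and 2586 of 13379. In the lists the block called 2 of 4 acute-phase and 4 of 13 interleukin-6 genes in mutant MEF, and 5 of 12 interleukin-1 genes in sgPrrx1 MEF. Genes with under about 10 counts in a group are limited by depth, and their folds are bounds or rest on few counts.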
